A study of Mus musculus with 6 samples.

Results

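Cluster 9 of the tumor cells was a group of 2803 cells, taken as every cell that the deposited cell table annotated as a tumor cell and placed in its cluster 9. It made up 2803 of 29638 tumor cells and of 58794 annotated cells in all, and the other 26835 tumor cells served as its comparison. Single-cell RNA sequencing (10x Genomics) had been run on dissociated liver tumor tissue of 6 mice, with 1 library per mouse. All 6 were wild-type male C57BL/6J mice, 8 weeks old when obtained. Their left liver lobe had been injected with H22 cells, a murine hepatocellular carcinoma line passaged as pooled ascites. The 3 stress mice had been exposed to chronic unpredictable mild stress for 21 days, with stressors applied daily, and the 3 control mice had received no stressors. Per the study, the tumor cells were injected after the stress and its behavioral tests. Every tumor thus came from 1 transplanted line, so the tumor cells of the 6 mice shared their source. Cluster 9 held 730, 513 and 492 cells in control mice 1 to 3 and 453, 306 and 309 cells in stress mice 1 to 3.

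The 5 genes that give this cluster its working name belong to separate pathways. Pde4c is a phosphodiesterase that breaks down cAMP, a second messenger of many cell surface receptors. Ogt attaches the sugar O-GlcNAc to nuclear and cytoplasmic proteins, and Deptor binds and inhibits the growth kinase mTOR. Mir100hg is a long non-coding RNA whose annotated span contains the microRNA genes Mir100, Mirlet7a-2 and Mir125b-1, and Prune2 encodes a protein with a CRAL-TRIO lipid-binding domain. Other groups of genes describe the cluster more fully. Immediate-early genes such as Fos and Egr1 are switched on within minutes of a growth factor, a cAMP signal or tissue handling, and their RNAs decay quickly. Heat shock genes encode chaperones and are driven by the transcription factor HSF1, while the mitochondrial genome encodes a small set of respiratory chain subunits.

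Promoters of 3 genes, picked as examples from those low in cluster 9, are shown with the letters of elements known from cAMP and heat shock signalling. Fos and Dusp1, which encodes a phosphatase that switches off MAP kinases, were among the genes with the lowest level relative to other tumor cells, as was Hspa1a, the inducible Hsp70 chaperone. The 250 bases before their annotated start sites are given 5′ to 3′ on the gene's own strand, from RefSeq on GRCm38.p6. Capitals mark TGACG or its reverse complement CGTCA, the core of the cAMP response element, in Fos (chr12:85473640-85473889, plus strand) and Dusp1 (chr17:26508473-26508722, minus strand), and GAANNTTC, a pair of heat shock element repeats, in Hspa1a (chr17:34972157-34972406, minus strand).
Fos: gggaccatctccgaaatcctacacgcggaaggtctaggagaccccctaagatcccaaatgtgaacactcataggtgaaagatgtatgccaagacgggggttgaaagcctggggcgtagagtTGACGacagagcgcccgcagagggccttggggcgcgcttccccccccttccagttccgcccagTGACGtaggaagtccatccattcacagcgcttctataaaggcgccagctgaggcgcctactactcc
Dusp1: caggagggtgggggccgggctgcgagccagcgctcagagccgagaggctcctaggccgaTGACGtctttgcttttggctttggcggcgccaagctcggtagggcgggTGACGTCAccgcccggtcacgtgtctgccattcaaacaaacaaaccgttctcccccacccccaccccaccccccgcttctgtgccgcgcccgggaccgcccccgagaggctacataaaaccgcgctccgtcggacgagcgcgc
Hspa1a: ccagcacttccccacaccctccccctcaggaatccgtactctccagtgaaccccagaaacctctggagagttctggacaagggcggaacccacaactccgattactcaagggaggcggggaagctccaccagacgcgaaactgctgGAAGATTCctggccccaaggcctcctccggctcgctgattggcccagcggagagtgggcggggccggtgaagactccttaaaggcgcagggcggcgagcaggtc
In Fos the motif lay 129 and 66 bases before the start. In Dusp1 it lay 191 and 143 bases before the start, and there the second match overlapped CGTCA at 140 bases, which together spelled the palindrome TGACGTCA. The heat shock motif of Hspa1a, as GAAGATTC, lay 104 bases before the start. Searched on either strand, TGACG occurred in 17.8% of all 32851 RefSeq windows of this length, and in 7 of the 11 immediate-early genes that had a window (Atf3, Egr2, Fos, Fosb, Junb, Klf2 and Nr4a1). It also occurred in 5 of the 9 heat shock genes with a window. Genes with several start sites counted once if any window matched, so these counts are not on the same footing as the share of windows. GAANNTTC occurred in 6.69% of all windows and in 6 of 9 heat shock genes with a window, and TTCNNGAA, the other order of the same repeats, in 7.17% of all windows and in 3 of those 9. TGACGTCA occurred in 1.55% of windows and in no window of the immediate-early or heat shock genes, and Dusp1 belongs to neither list. Dnajb1, also among the lowest genes, had TGACG but neither order of the heat shock repeats. These matches describe letters in a window and do not show that a factor was bound.

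Levels are given as CPM, the UMIs of a gene per 1000000 UMIs, from counts summed over the cluster 9 cells of each mouse. Cluster 9 contributed between 6266194 and 13278852 UMIs per mouse. The median cluster 9 cell had 18689 UMIs and 4730 genes, both the eighth highest among the 10 tumor clusters, and the median cell of the other tumor clusters had between 1852 and 36299 UMIs. A median of 7.55% of its UMIs came from mitochondrial genes, the highest of the 10 clusters, against 3.31% to 6.20% in the others. Scrublet called 0.749% of cluster 9 cells doublets. The control libraries had been processed with Cell Ranger 9.0.0 and the stress libraries with Cell Ranger 7.1.0, so the groups differ in software as well as in stress, and their parts cannot be told apart. Of the annotated barcodes, 386 occurred in more than 1 library, and 38 cluster 9 cells carried a barcode that another library also held, but none of these was a cluster 9 cell in both.

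All 5 markers were higher in cluster 9 than in the other tumor cells. For none of them was cluster 9 the highest single cluster in every mouse. The markers were chosen with earlier results of these data known, so their direction is not independent evidence for the working name. Each marker was higher than in the other tumor cells in 6 of 6 mice, which 39.1% of the 10154 genes with at least 5 CPM in either class also were. These cells were clustered on their own expression, so all differences between cluster 9 and other tumor cells are descriptions, with no test. Pde4c averaged 31.7 CPM against 3.78 CPM in other tumor cells, with a median log2 difference over the 6 mice of 2.08. It stood at 4.89, 9.66 and 5.16 CPM in the cluster 9 cells of the 3 control mice and at 68.2, 68.2 and 34.2 CPM in those of the 3 stress mice. The marker for which the cluster is named was thus low in control mice, although still above the 0.534, 2.44 and 0.667 CPM of their other tumor cells. Ogt was abundant and even across mice, at 322, 479 and 384 CPM in control and 292, 377 and 445 CPM in stress mice, against 124 to 213 CPM in other tumor cells. Mir100hg averaged 34.0 CPM against 13.1 CPM, Prune2 82.4 against 41.1 CPM, and Deptor 47.1 against 21.3 CPM.

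Cluster 9 had the highest level of the 10 tumor clusters in 4 of 6 mice for Pde4c, Prune2 and Mir100hg and in 5 of 6 for Ogt and Deptor, and was second highest in the remaining mice. Cluster 17 was above cluster 9 for Pde4c, at a mean of 48.2 CPM, and below it for the other markers it shared, at 69.6 CPM of Prune2, 342 CPM of Ogt and 25.3 CPM of Mir100hg. In stress mice alone Pde4c was at 92.3 CPM in cluster 17 and 56.9 CPM in cluster 9. Cluster 17 differed from cluster 9 in depth, with a median of 1852 UMIs per cell and 13.9% called doublets. The other 8 tumor clusters had between 1.07 and 5.50 CPM of Pde4c. By Euclidean distance of log2(CPM + 1) over 10887 genes, the clusters most like cluster 9 were clusters 4, 3 and 5, at 46.4, 50.3 and 51.3, and cluster 17 lay at 67.9.

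Prune2 and Deptor followed an order of mice that was not the order of the groups. Prune2 measured 166, 34.0 and 140.4 CPM in control mice 1 to 3 and 62.1, 43.8 and 47.7 CPM in stress mice 1 to 3. Deptor measured 92.4, 11.9 and 87.3 CPM in the control mice and 47.2, 23.6 and 20.3 CPM in the stress mice. Control mouse 2 was the lowest of all 6 for both genes, while control mice 1 and 3 were the highest and stress mouse 1 came next. Fkbp5, a cochaperone of the glucocorticoid receptor and one of its classic targets, showed the same top 3 mice in the same order, at 399.7, 114 and 338 CPM in control and 220.1, 118 and 129 CPM in stress mice. Tsc22d3, also known as GILZ and likewise induced by glucocorticoids, measured 328, 37.9 and 263 CPM in control and 130.5, 30.4 and 41.8 CPM in stress mice. Fkbp5 and Tsc22d3 are examples chosen after their values were seen, and other glucocorticoid response genes differed. Mt2 had the same top 3 mice, but Mt1 was at 3152 CPM in stress mouse 3 and 2741 CPM in stress mouse 1. Dusp1 was at 47.9 CPM in stress mouse 1 and 42.4 CPM in control mouse 3. In the other tumor cells control mouse 2 was again the outlying mouse, with Prune2 at 79.6, 19.7 and 55.7 CPM and Deptor at 41.6, 6.77 and 36.2 CPM in control mice 1 to 3.

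The largest differences of cluster 9 from other tumor cells were downward and fell on genes of acute signalling and protein stress. All 16 immediate-early genes were lower in cluster 9 in 6 of 6 mice, with a median log2 difference of -1.69, against a background of 20.3% of genes lower in all mice and a median of 0.10 over all genes. Fos measured 133, 74.2 and 68.8 CPM in the cluster 9 cells of control mice and 108, 44.0 and 50.7 CPM in those of stress mice. In the other tumor cells of the same mice it measured 1166, 832 and 1067 CPM and 584, 341 and 565 CPM, so that no cluster 9 value came near the range of other tumor cells. The median log2 difference of Fos was -3.28, the largest among the 10 genes that were most clearly lower in cluster 9. Atf3, a stress-induced transcription factor, averaged 32.5 against 218 CPM, Egr1 210.0 against 879 CPM and Fosb 66.3 against 393 CPM. Of the Jun family, Jun, Junb and Jund were lower by medians of -1.82, -1.34 and -1.62 on the log2 scale. The members with the smallest differences were Myc, at -0.33, and the orphan nuclear receptor Nr4a1, at -0.41.

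**Figure D1:**
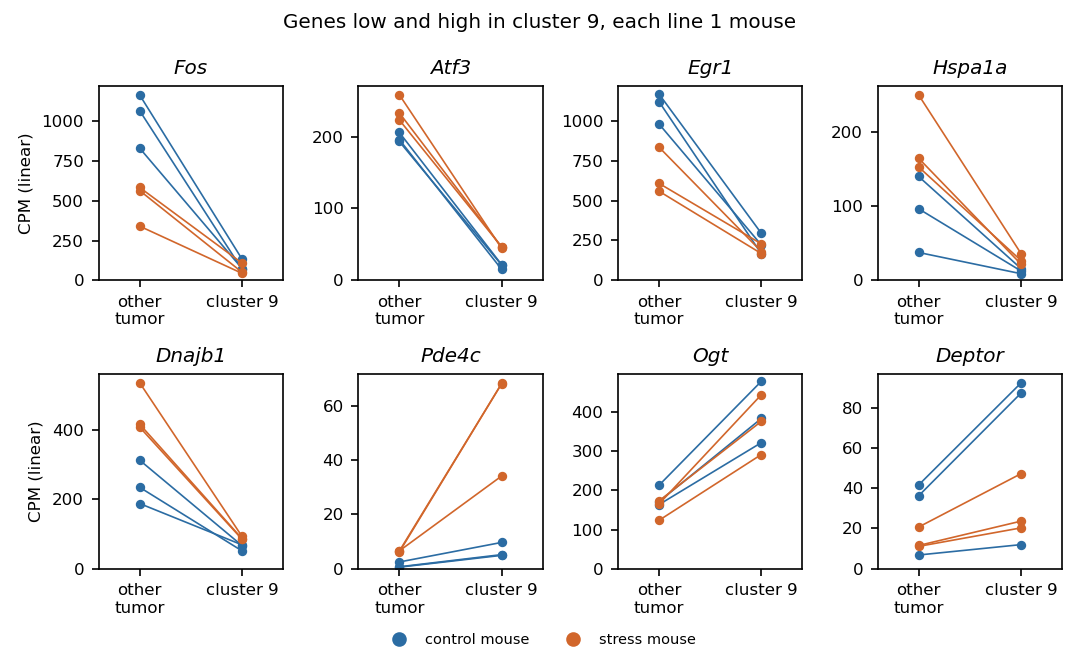
Level of 8 genes in CPM (linear axes from 0) in other tumor cells and in cluster 9, with each line joining the 2 values of 1 mouse, control mice in blue and stress mice in orange. Fos, Atf3, Egr1, Hspa1a and Dnajb1 lie lower in cluster 9 in every mouse, Fos at no more than 133 CPM against 341 to 1166 CPM, and Pde4c, Ogt and Deptor lie higher in cluster 9 in every mouse.

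Heat shock genes were lower as well, though by less. Of 12 members, 11 were lower in 6 of 6 mice, where 20.3% of all genes with at least 5 CPM were lower. The median log2 difference of the list was -0.66, and the exception was Hspa5, the chaperone of the endoplasmic reticulum, at -0.06. Hspa1a measured 15.8, 8.9 and 12.6 CPM in cluster 9 of control mice and 36.0, 21.7 and 26.7 CPM in that of stress mice. Other tumor cells held 139.8, 37.5 and 96.3 CPM and 249.6, 164 and 153 CPM of it. Every cluster 9 value was thus below every value of other tumor cells, by a median of -2.80 on the log2 scale. Hspa1b averaged 38.2 against 182 CPM, Dnajb1, the Hsp40 partner of Hsp70, 74.7 against 348 CPM, and the small heat shock protein gene Hspb1 161 against 539.9 CPM. Also among the 10 lowest genes were Dusp1, at 43.0 against 241 CPM, Dusp2, at 5.65 against 25.7 CPM, and Phlda1, at 91.9 against 368 CPM.

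Genes of the glucocorticoid receptor pathway were mostly lower in cluster 9, with exceptions. Of 12 members with at least 5 CPM, 8 were lower and 1 was higher in all 6 mice, with a median of -0.55. Of all genes at that level, 20.3% were lower and 39.1% higher in all 6 mice. The higher member was Fkbp5, at 219.7 against 108 CPM. The receptor itself, Nr3c1, was at 85.5 CPM in cluster 9 and 77.7 CPM in other tumor cells. Lower members included the kinase Sgk1, at 57.6 against 158 CPM, and the metallothionein Mt1, at 3118 against 5475 CPM. The summed list, much of which is Mt1 and Mt2, was lower in every mouse, with log2 differences from -0.88 to -0.32.

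In the opposite direction, all 13 mitochondrially encoded genes were higher in cluster 9 in 6 of 6 mice, with a median of 0.83. Of all genes with at least 5 CPM, 39.1% were higher in 6 of 6 mice. The summed level of the 13 genes was 79792 CPM, the highest of the 10 tumor clusters. The other clusters ranged from 36638 to 61143 CPM apart from cluster 21 at 65180 CPM. The summed level of the 16 immediate-early genes was 1568 CPM, lower than in all clusters but cluster 21, at 494 CPM, and the other 8 clusters ranged from 3663 to 10145 CPM. Both patterns were therefore shared in part with cluster 21, whose expression was otherwise the farthest from cluster 9, at a distance of 201. Nuclear-encoded respiratory chain genes did not shift with the mitochondrial ones. Of 86 members, 18 were higher and 17 lower in all mice, with a median of 0.00, beside 39.1% and 20.3% of all genes. Cluster 9 cells also had fewer UMIs, with medians per mouse of 17075 to 21967.5 against 22507 to 33640 in other tumor cells. The clusters with fewer UMIs still, 17 and 21, held 58253 and 65180 CPM of mitochondrially encoded genes and 5727 and 494 CPM of immediate-early genes. The part of depth and cell quality in the profile of cluster 9 was not tested.

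**Figure D2:**
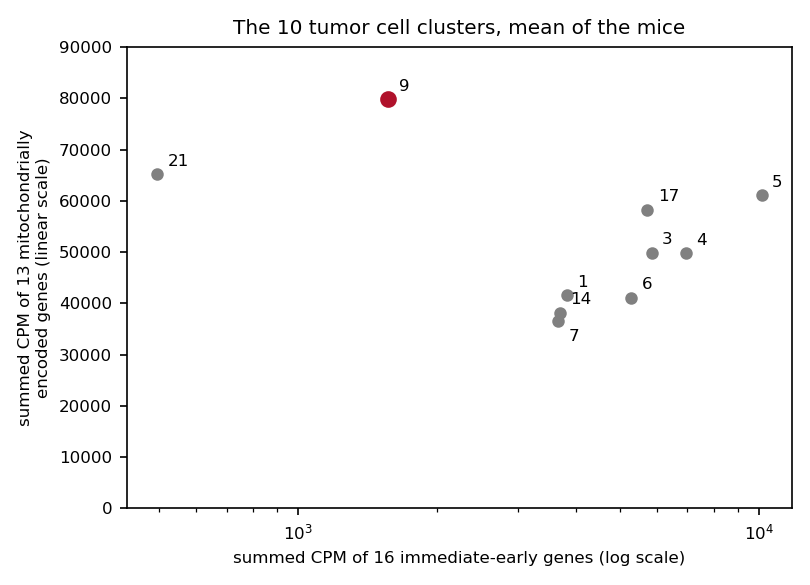
Summed level of 16 immediate-early genes (x axis, CPM, log scale) against that of 13 mitochondrially encoded genes (y axis, CPM, linear) for the 10 tumor clusters, each point the mean of the mice. Cluster 9, in red, is at 1568 and 79792 CPM, left of and above all clusters except cluster 21, which lies farther left at 494 CPM and lower at 65180 CPM.

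Several other groups were raised in cluster 9, where 39.1% of all genes with at least 5 CPM were higher in 6 of 6 mice. All 6 MHC class I genes with at least 5 CPM were higher in 6 of 6 mice, with a median of 0.47, among them the peptide-loading factor Tapbp at 91.4 against 58.2 CPM and the light chain B2m at 249 against 192 CPM. Of 31 chromatin regulators, 23 were higher and 3 lower, with a median of 0.31, including the heterochromatin remodeler Atrx at 178 against 125 CPM. Of 7 nuclear-retained long RNAs, 5 were higher, such as Malat1 at 5977 against 4315 CPM and Pvt1 at 366 against 236 CPM, and 1 was lower, Neat1 at 239.5 against 349 CPM. Clusters 5, 6 and 17 nevertheless held more Malat1 than cluster 9, at 7629, 7835 and 9117 CPM. The same 3 clusters were above cluster 9 for the summed list. The 20 genes with the largest positive differences included Pecam1, an adhesion molecule best known from endothelium, at 25.4 against 4.82 CPM over all mice but only 4.93 against 2.83 CPM in control mice, and Arhgap45, a GTPase regulator best known from blood cells, at 30.6 against 11.5 CPM. They also included the basement membrane collagen Col4a5, at 21 against 8.34 CPM, the kinase Lrrk1, at 88.6 against 39.9 CPM, the DNA repair kinase Prkdc, at 30.2 against 12.5 CPM, and Lars2, the leucyl-tRNA synthetase of mitochondria, at 603 against 256 CPM. Clusters 17 and 21 held 2126 and 609 CPM of Lars2. Among the rest of the 20 were non-coding genes such as Gm47507 and A830082K12Rik, the latter at 43.2 against 15.9 CPM.

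The pathways of the marker genes themselves were mixed. Over all genes with at least 5 CPM, 39.1% were higher and 20.3% lower in 6 of 6 mice, and the counts of these lists lay near those shares. In the O-GlcNAc and hexosamine list, 4 of 10 genes were higher and 3 lower in all mice, and Oga, the enzyme that removes the sugar that Ogt adds, was at 75.0 against 69.7 CPM. Of 36 mTOR pathway genes, 11 were higher and 6 lower, with a median of 0.01. The higher members included not only the inhibitor Deptor but also Rptor and Rictor, the defining subunits of mTOR complexes 1 and 2, at medians of 0.40 and 0.38, and Depdc5, a brake on amino acid signalling to mTOR, at 0.74. Of 28 cAMP signaling genes, 12 were higher and 5 lower, with a median of 0.14. The higher ones included 2 more phosphodiesterases, Pde7b at 17.9 against 7.95 CPM and Pde4a at 31.0 against 18.7 CPM, and the cyclase Adcy7, while the kinases Sik1 and Sik2 were lower.

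Growth and identity genes were mixed, beside the 39.1% and 20.3% of all genes that were higher and lower in 6 of 6 mice. Of 77 ribosomal protein genes, 59 were lower and 2 higher, but the median was only -0.15. Cell cycle genes showed no common shift for S phase (3 higher, 2 lower of 26, median 0.01) and were slightly lower for G2 and M phase (2 higher, 11 lower of 26, median -0.13). The other tumor cells pool unlike clusters here. Summed S-phase genes were at 1252 CPM in cluster 9, 1636 to 2048 CPM in clusters 1, 4 and 14 and 522 to 697 CPM in clusters 3, 5, 6 and 7. Summed G2 and M-phase genes were at 1453 CPM, beside 3029 to 3434 CPM and 481 to 612 CPM in these sets. Clusters 17 and 21 held 1473 and 588 CPM of S-phase and 1851 and 930 CPM of G2 and M-phase genes. Of 9 H22 tumor and epithelial genes, Cldn6, at 182 against 134 CPM, and Epcam, at 159.8 against 144 CPM, were higher in all mice, and 4 were lower, led by Krt18 at 236 against 436 CPM, with a median of -0.31. Of the 3 oncofetal and imprinted genes with at least 5 CPM, Hmga2, a chromatin protein of embryonic and tumor cells, was higher in all mice, at 1519 against 997 CPM, while Afp was at 79.6 against 78.2 CPM and Igf2bp2 at 62.5 against 58.0 CPM. The summed level of that list was higher in cluster 9 by 0.28 to 0.81 on the log2 scale. The median differences of the remaining groups lay between -0.22 and 0.24: snoRNA host genes (1 higher, 6 lower of 15), integrated stress response genes (0 and 8 of 14), FOXO, growth arrest and p53 genes (6 and 8 of 20), glycolysis and hypoxia genes (4 and 8 of 21), splicing regulators (9 and 7 of 30), replication-dependent histones (4 and 4 of 28) and interferon-stimulated genes (3 and 0 of 7). The summed FOXO, growth arrest and p53 list was lower in cluster 9 in every mouse, with log2 differences from -0.89 to -0.55.

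**Figure D3:**
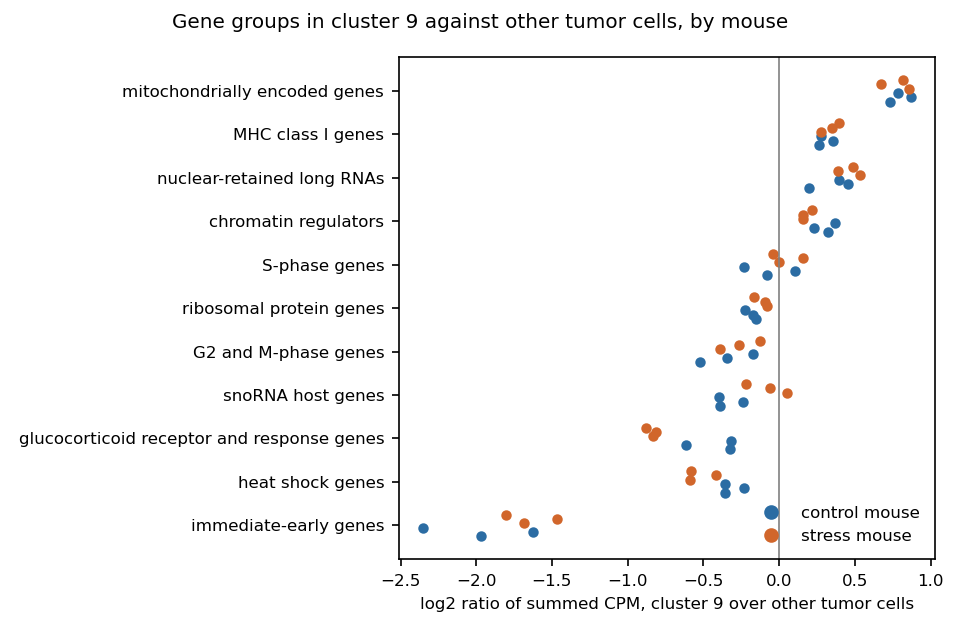
Log2 ratio of the summed CPM of 11 gene groups in cluster 9 over other tumor cells (x axis), with 1 point per mouse, control mice in blue and stress mice in orange. Of the 11 groups plotted, immediate-early genes lie farthest left and mitochondrially encoded genes farthest right in all 6 mice (the markers, the Cmss1 group and the oncofetal genes are not plotted), and S-phase genes lie on both sides of 0.

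Stress and control mice were compared next, within cluster 9 alone, which asks what chronic stress was accompanied by in these cells. The cluster's share of tumor cells did not separate the groups, at 9.89%, 8.94% and 9.92% in control and 10.4%, 7.91% and 9.23% in stress mice (exact two-sided permutation test, p = 0.70, n = 3 per group). Because Pde4c, which marks the cluster, itself differed between the groups, this share is given as a description. Of 13243 genes tested with edgeR's quasi-likelihood test, 1214 (9.17%) had an adjusted p under 0.05, of which 957 (7.23% of the tested genes) rose and 257 (1.94%) fell in stress. Without any threshold of significance, the CPM of the groups did not overlap for 27.7% of tested genes. The number of calls depended on single mice. Dropping control mouse 2 raised it to 3164, whereas dropping control mouse 1 or control mouse 3 left 654 or 472 calls and dropping stress mouse 1 or stress mouse 2 left 630 or 693. Thinning cells to 5000 UMIs each, which leaves out the 90 of 2803 cluster 9 cells that lay below that depth (4 to 21 per mouse), gave 218 calls, and 306 cells per mouse gave 713. Of all tested genes, 347 (2.62%) were called, had groups that did not overlap and reached 20 CPM in the higher group, and the largest rises and falls were taken from these. In other tumor cells of the same 6 mice, 3318 of 18528 genes (17.9%) were called. Both comparisons use the same 6 libraries, and the calls in cluster 9 are not particular to it unless the difference from other tumor cells was tested.

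The largest rises in stress included Pecam1 and Pde4c. Pecam1 (chromosome 11, 106654217 to 106750628, minus strand, GRCm38) stood at 5.20, 5.53 and 4.07 CPM in control mice and at 65.8, 34.7 and 37.2 CPM in stress mice. The lowest stress mouse was thus far above the highest control mouse, on 222 UMIs against 51 in those libraries. The log2 fold change was 3.23 ± 0.30 (SE; edgeR adjusted p = 0.00129). Pde4c (chromosome 8, 70723720 to 70751186, plus strand) rose from 6.57 ± 2.68 to 56.9 ± 19.7 CPM (SD, n = 3), by 3.14 ± 0.34 on the log2 scale (edgeR adjusted p = 0.00199). Mean Pde4c was also higher in stress in the other annotated cell types, for example at 6.39 and 27.3 CPM in endothelial cells, 0.170 and 15.1 CPM in M-MDSCs and 2.71 and 10.7 CPM in monocytes. Gm3336, annotated on the same strand just ahead of Pde4c (chromosome 8, 70718543 to 70722634), rose from 5.59 to 30.8 CPM, and reads running from one into the other could not be assigned with certainty. No other annotated gene overlaps the spans of these 3 genes.

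Pecam1 is an endothelial marker, and the other endothelial genes were examined beside it. All 7 listed endothelial markers were testable in cluster 9 and only Pecam1 was called. Cdh5, the cadherin of endothelial junctions, was at 2.6 CPM in control and 2.64 CPM in stress, and Eng, a TGF-beta coreceptor, at 8.55 and 7.70 CPM. The other 4 were higher in stress on average, Kdr at 1.56 and 3.11 CPM, Ptprb at 3.60 and 7.61 CPM, Stab2 at 3.15 and 6.42 CPM and Clec4g at 3.66 and 5.66 CPM, and the median log2 fold change of all 7 was 0.90. In stress, Pecam1 in cluster 9 was 7.96% of its level in the annotated endothelial cells. Cdh5 was at 0.392%, Eng at 1.09%, Kdr at 0.347%, Ptprb at 0.363%, Stab2 at 0.50% and Clec4g at 0.513% of theirs. The summed endothelial markers, Pecam1 included, ranged from 25.3 to 30.4 CPM in control and from 67.1 to 87.2 CPM in stress, and other tumor cells ranged from 24.5 to 37.5 CPM in stress. Of these sums in cluster 9, Pecam1 alone held 4.07 to 5.53 CPM in control and 34.7 to 65.8 CPM in stress. Pecam1 was at 599 CPM in control and 577 CPM in stress endothelial cells. Its mean was higher in stress in stellate cells (1.11 and 42.0 CPM), M-MDSCs (4.16 and 14.4 CPM) and neutrophils (3.65 and 8.10 CPM). The same held for monocytes (39.5 and 49.5 CPM), NK and T cells (23.7 and 35.4 CPM) and inflammatory myeloid cells (25.4 and 34.4 CPM). It was lower in B cells (71.3 and 51.8 CPM) and alike in dendritic cells (19.4 and 19.5 CPM). Among the tumor clusters, Pecam1 in stress reached 69.6 CPM in cluster 17 and 45.9 CPM in cluster 9, with 2.18 to 8.72 CPM in the other 8. Among the markers of further cell types the only other call was Csf1r, a macrophage receptor, from 1.24 to 5.46 CPM (edgeR adjusted p = 0.0219), which was 3.05% of its level in annotated monocytes. The other 5 testable monocyte and macrophage markers and the testable markers of B cells (1), dendritic cells (3), neutrophils (3) and stellate cells (1) were not called. Their log2 fold changes were nevertheless mostly positive, with list medians of 0.97 for monocytes and macrophages, 1.28 for B cells, 1.16 for dendritic cells, 0.98 for neutrophils and 1.08 for stellate cells, against -0.01 over all tested genes. The part of RNA from other cell types in the rises of Pecam1 and Csf1r was not tested. No marker of NK and T cells, hepatocytes or red cells had enough UMIs to be tested. Xcr1, Lrat and Rgs5 had 0 UMIs in cluster 9, which allows a level of up to 0.0542 CPM for counting error alone.

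**Figure D4:**
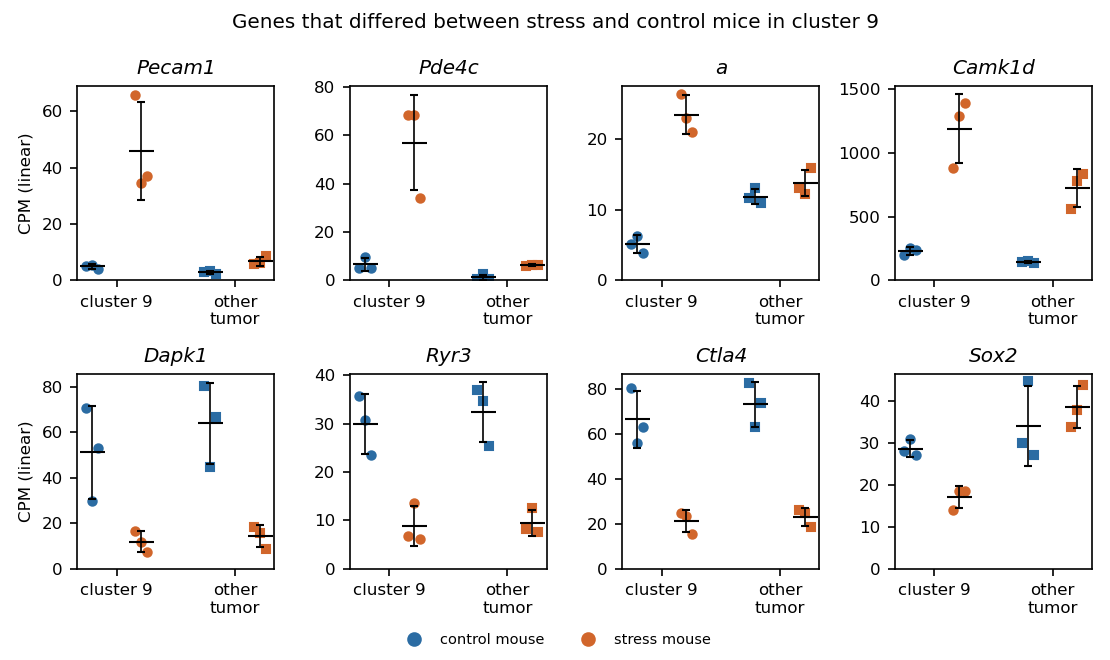
Level of 8 genes in CPM (linear axes from 0), with 1 point per mouse, in cluster 9 (circles) and other tumor cells (squares), control mice in blue and stress mice in orange, and the mean ± SD of 3 mice as bars. Pecam1 and Pde4c are higher in cluster 9 of stress mice than in the other 3 sets of points, Camk1d, Dapk1, Ryr3 and Ctla4 differ in the same direction in both classes, and Sox2 is lower in stress in cluster 9 alone of the 2 classes.

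A second group of rises was large and involved abundant RNAs. Camk1d, a calcium/calmodulin-dependent protein kinase, measured 199, 254 and 239.7 CPM in control and 883, 1294 and 1394 CPM in stress mice. Its log2 fold change was 2.35 ± 0.17 (edgeR adjusted p = 0.000574). Gphn, which encodes the scaffold protein gephyrin, rose from 273 ± 45.5 to 1355 ± 396 CPM, beside 131 to 163 CPM in control and 474 to 826 CPM in stress in other tumor cells. Further members of this group were Cmss1, whose product belongs to small ribosomal subunit processing and which rose from 174 ± 42.8 to 825 ± 336 CPM, and Lars2, which rose from 216 ± 71.1 to 989 ± 341 CPM. With Cdk8 and Gm19951 these form the Cmss1 group, all 6 of whose measured members rose, by a median of 2.20. Camk1d, Gphn, Cmss1 and Lars2 had log2 fold changes of 2.35, 2.29, 2.22 and 2.18 in cluster 9 and of 2.20, 2.02, 1.83 and 2.28 in other tumor cells. The list had been drawn up because its members moved together in earlier results of these data, so its direction is not independent evidence. The stress libraries had gone through the other version of the counting software, and the part of that version in these rises cannot be told apart from stress. Non-coding genes also ranked high, among them Gm47507, from 4.98 to 40.8 CPM, Gm36037, from 11.3 to 80.3 CPM, and B230369F24Rik, from 4.38 to 23.2 CPM. Long non-coding genes made up 9.69% of the tested genes but 25.7% of the rises (246 genes) and 4.67% of the falls.

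The gene a, or nonagouti, which encodes an antagonist of melanocortin receptors, rose in cluster 9 from 5.20, 6.29 and 3.80 CPM in control to 26.3, 23 and 20.9 CPM in stress mice. The groups were far apart and evenly spread, and the log2 fold change was 2.20 ± 0.21 (edgeR adjusted p = 0.00139). Its level in other tumor cells, between 10.9 and 15.9 CPM in all 6 mice, was not called (0.08, edgeR adjusted p = 0.678). The annotated span of a (chromosome 2, 154791402 to 155051012, plus strand) also holds Raly and Gm14226 on the same strand and Eif2s2 on the other, so reads from their introns could have been counted for it.

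The largest falls involved signalling genes and a set of genes that contain processed pseudogenes. Dapk1, a kinase that promotes cell death, fell from 51.3 ± 20.5 to 11.9 ± 4.68 CPM (log2 fold change -2.10 ± 0.38, edgeR adjusted p = 0.0100), but was not called without stress mouse 2 (edgeR adjusted p = 0.0506). Ryr3, a calcium release channel, fell from 30.0 ± 6.20 to 8.86 ± 4.12 CPM (edgeR adjusted p = 0.00624). Ctla4, the inhibitory receptor known from T cells, measured 80.5, 55.9 and 63.3 CPM in control and 24.9, 23.3 and 15.6 CPM in stress mice, with no overlap (log2 fold change -1.65, edgeR adjusted p = 0.00382). The markers of NK and T cells summed to between 0.45 and 6.26 CPM in cluster 9 of the 6 mice, while Ctla4 was at 599 CPM in control and 505 CPM in stress NK and T cells. Among other annotated types, Ctla4 was lower in stress in endothelial cells (45.3 and 16.8 CPM), M-MDSCs (73.8 and 21.3 CPM), inflammatory myeloid cells (39.5 and 13.9 CPM) and monocytes (48.9 and 26.4 CPM) and higher in neutrophils (22.4 and 61.7 CPM), so a lower level was not particular to tumor cells. The span of Ctla4 (chromosome 1, 60887000 to 60915832, plus strand) holds the same-strand pseudogene Rpl18-ps1, and reads from the pseudogene cannot be separated from those of Ctla4 here. The same was true of Nudcd3, from 411 ± 70.6 to 152 ± 16.7 CPM, which holds Rps15a-ps6, and of Map7, from 112 to 43.3 CPM, which holds Rpl32l and was not called without stress mouse 2 (edgeR adjusted p = 0.0544). Other large falls were Gapdhrt, from 22.6 to 7.29 CPM, and Eno1b, from 30.1 to 10.8 CPM, near-identical copies of glycolytic enzyme genes, as well as Gm53028, Gm46563 and Wdr89, the last from 389 to 154 CPM. The 10 largest falls were of like size in other tumor cells, for example -2.10 for Dapk1, -1.79 for Ryr3 and -1.65 for Ctla4 in cluster 9 beside -2.29, -1.91 and -1.80 there. Gapdhrt was not called when cells were thinned to 5000 UMIs each (edgeR adjusted p = 0.0643).

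The pseudogene overlaps were counted after these values had been seen. A processed pseudogene lay on the same strand within the span of 26 of 248 genes that fell (10.5%), 53 of 920 that rose (5.76%) and 530 of all 12888 tested genes with a position (4.11%). On the opposite strand the shares were 6.45%, 8.59% and 6.67%. The median span was 23352 bp for falls, 33478 bp for rises and 23188 bp for all tested genes. Reads that match a pseudogene and its parent gene alike are assigned by software rules, and their part in these falls was not tested.

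The mitochondrial share of cluster 9 cells was higher in stress. It averaged 6.47%, 7.98% and 8.40% of UMIs in control and 10.3%, 9.72% and 9.99% in stress mice, a difference of 2.39 percentage points. The groups did not overlap, and the exact two-sided permutation test gave p = 0.10, the smallest value that 3 against 3 mice allow. Other tumor cells moved the same way, from 4.08% to 5.43%, so that the excess of cluster 9 over them was 3.54 points in control and 4.57 in stress (exact permutation p = 0.10). Of the 13 mitochondrially encoded genes, 7 rose and none fell, with a median of 0.63, where 7.23% of all tested genes rose. The rise was uneven along the mitochondrial genome. The complex I subunit mt-Nd2 rose from 1858 ± 175 to 4000.1 ± 251 CPM and mt-Nd5 from 616 ± 86.2 to 1208 ± 60.1 CPM (edgeR adjusted p = 0.00348 and 0.00418), while mt-Nd1, the neighbour of mt-Nd2 in the mitochondrial genome, was at 5346 and 5439 CPM (edgeR adjusted p = 0.975). The ATP synthase subunit mt-Atp8 rose from 152 to 501 CPM and mt-Nd4l from 174 to 483 CPM. Those genes overlap mt-Atp6 and mt-Nd4, whose reads cannot be fully separated from theirs, and mt-Nd4 was not called without control mouse 1, control mouse 3, stress mouse 1 or stress mouse 3 (edgeR adjusted p = 0.0531 to 0.114).

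**Figure D5:**
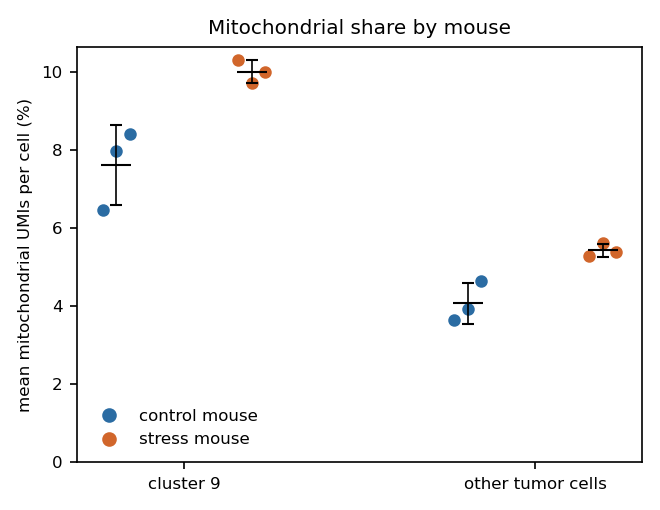
Mean share of mitochondrial UMIs per cell (y axis, percent, from 0) in cluster 9 and in other tumor cells, with 1 point per mouse, control in blue and stress in orange, and the mean ± SD of 3 mice as bars. In cluster 9 the stress mice sit at 9.72% to 10.3% and the control mice at 6.47% to 8.40%, and both groups are above the other tumor cells of either group.

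Glycolysis and hypoxia genes fell in part. Of 23 tested, 6 fell and none rose, with a median of -0.34, against 1.94% falling and a median of -0.01 over all tested genes. Gpi1, which isomerizes glucose 6-phosphate, fell from 266, 240.2 and 253 CPM to 158, 173 and 176 CPM (edgeR adjusted p = 0.00915), with no overlap between the groups. The pyruvate kinase Pkm fell from 723 ± 69.5 to 466 ± 95.9 CPM and the phosphofructokinase Pfkp from 156 ± 7.8 to 111 ± 11.3 CPM. The log2 fold changes of Gpi1, Pkm and Pfkp were -0.60, -0.66 and -0.50 in cluster 9 and -0.78, -0.80 and -0.59 in other tumor cells. Gpi1, Pfkp and Ndrg1 lost their call when cells were thinned to 5000 UMIs each (edgeR adjusted p = 0.0804, 0.155 and 0.102). The others were the mitophagy receptor Bnip3, the hypoxia-induced Ankrd37 and Ndrg1. The summed level of the list was 9108 ± 203 CPM in control and 7798 ± 213 CPM in stress. Pkm, Pfkp and Ndrg1 each lost the call when control mouse 3 or stress mouse 1 was dropped, and Pkm also when stress mouse 3 was, with an edgeR adjusted p of at most 0.0773 over these mice.

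Replication-dependent histones moved the other way, with 10 of 51 tested genes rising and none falling (median 0.45), where 7.23% of all tested genes rose. H2bc4 rose from 4.68 ± 1.30 to 15.3 ± 2.66 CPM (edgeR adjusted p = 0.00601) and H2bc6 from 4.80 ± 0.231 to 12.7 ± 2.72 CPM (edgeR adjusted p = 0.00448). The log2 fold changes of H2bc4, H2bc6, H1f4 and H2ac24 were 1.68, 1.37, 0.79 and 0.90 in cluster 9. In other tumor cells they were 0.92, 1.07, 1.19 and 1.38. Histone genes lie in clusters of similar copies, and the span of H2bc6 overlaps a neighbouring histone gene, so counts for single members are uncertain. Of the members with the highest level among those called, H1f4 lost its call without control mouse 1 or 3 or stress mouse 1 or 2, and H2ac24 without control mouse 3 or stress mouse 2 or 3 (edgeR adjusted p = 0.0670 to 0.187 over both). H2ac24 was also not called with thinned cells, RLE scaling, 306 cells per mouse or totals without mitochondrial genes (edgeR adjusted p = 0.0515 to 0.0879), nor H1f4 with 306 cells per mouse (0.0644). Of the genes of proliferation, none of 26 S-phase genes was called (median 0.04). Among these, Pcna was called in 2 of 14 alternatives, such as without control mouse 2 (edgeR adjusted p = 0.0137). The median of 26 G2 and M-phase genes was -0.45, and Kif11, a mitotic motor, was the single call among them, with a fall of -0.73 that was lost without control mouse 3, stress mouse 1 or stress mouse 3 (edgeR adjusted p = 0.0662 to 0.0986). With thinned cells the fall of Kif11 was -0.40 and was not called (edgeR adjusted p = 0.566).

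Of the genes that were low in cluster 9, 1 of 16 immediate-early and 2 of 12 heat shock genes rose and none fell, where 7.23% of all tested genes rose. Atf3 was the only 1 of 16 immediate-early genes that was called, at 21.7, 21.2 and 15.1 CPM in control and 46.6, 46.3 and 44.4 CPM in stress (log2 fold change 1.23 ± 0.16, edgeR adjusted p = 0.00339). The stress mice were nearly identical and well above the controls, but still far below the 193 to 258 CPM of other tumor cells. Fos and Egr1 had log2 fold changes of -0.44 and -0.25 (edgeR adjusted p = 0.545 and 0.55). Of 12 heat shock genes, Hspa1a rose from 12.4 to 28.1 CPM (edgeR adjusted p = 0.0287) and Hspa1b from 23.3 to 53.2 CPM (edgeR adjusted p = 0.0307). These near-identical copies share reads, and both lost their call without control mouse 3, stress mouse 1 or stress mouse 3, and Hspa1b also without control mouse 1 (edgeR adjusted p = 0.0675 to 0.115). Hspa1a was also not called with thinned cells (edgeR adjusted p = 0.146). None of 14 glucocorticoid receptor and response genes was called. Fkbp5 averaged 284 ± 151 CPM in control and 156 ± 56.0 CPM in stress (edgeR adjusted p = 0.263), and Tsc22d3 209.6 ± 152 and 67.5 ± 54.8 CPM (edgeR adjusted p = 0.231), with control mouse 2 low for both. Mt2 was called without control mouse 2 (edgeR adjusted p = 0.00353) and Mt1 was not called under any setting tried.

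Of the 5 marker genes, Pde4c was called, in all 14 alternatives too, and the other 4 were not. Ogt had a log2 fold change of -0.11 ± 0.17 and Mir100hg of -0.72 ± 0.20 (edgeR adjusted p = 0.748 and 0.0605). Prune2 and Deptor had values of -1.17 and -1.07 (edgeR adjusted p = 0.178 and 0.35). Control mouse 2 was the lowest of all mice for both, and without it Prune2 fell by 1.63 and Deptor by 1.58 on the log2 scale (edgeR adjusted p = 0.000348 and 0.00413). With all mice but no filter on low counts both were called as well (edgeR adjusted p = 0.00391 and 0.0390). Mir100hg was called in 5 of 14 alternatives, among them without control mouse 2, without stress mouse 3, without the filter (edgeR adjusted p = 0.0443, 0.0191 and 0.00259) and with DESeq2 (adjusted p = 0.0196).

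In the cAMP list, 2 of 31 genes rose, Pde4c and the sparse Pde8a (0.213 to 2.09 CPM), and 4 fell, where 7.23% of all tested genes rose and 1.94% fell. The 4 were Pde4a, from 36.7 ± 1.37 to 25.2 ± 3.20 CPM, the regulatory subunit Prkar2b, from 49.3 ± 13.1 to 24.7 ± 0.371 CPM, the kinase Sik3, from 119.8 ± 10.2 to 81.0 ± 6.84 CPM, and the arrestin Arrb1, from 22.7 ± 6.07 to 9.47 ± 1.23 CPM. Pde4a and its relative Pde4c thus moved in opposite directions. Pde4a and Sik3 lost their call without control mouse 1 or 3 or stress mouse 1 or 2, and Prkar2b without control mouse 3 or any single stress mouse (edgeR adjusted p = 0.0521 to 0.0948). None of 37 mTOR pathway genes was called. Uap1, which makes UDP-GlcNAc, the donor that Ogt uses, was the single call among 11 O-GlcNAc and hexosamine genes, with a fall of -0.39 that was lost without control mouse 1 or 3 or any single stress mouse (edgeR adjusted p = 0.0920 to 0.110). Pde4a, Sik3 and Uap1 were also not called with thinned cells (edgeR adjusted p = 0.127, 0.0649 and 0.103), nor Uap1 with 306 cells per mouse (0.0915).

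The remaining lists are to be read against 7.23% of all tested genes that rose and 1.94% that fell. Of 78 ribosomal protein genes 3 rose, led by Rpl10 from 628 ± 30.3 to 1317 ± 86.0 CPM (edgeR adjusted p = 0.00304), while Rpl35 and Rpl29 lost their call without control mouse 1 or 3 or stress mouse 1 or 3, and Rpl29 also without stress mouse 2 (edgeR adjusted p = 0.0552 to 0.128). Of 8 MHC class I genes, B2m rose from 207 to 289.9 CPM, a call lost without control mouse 1 or 3 or any single stress mouse (edgeR adjusted p = 0.0556 to 0.169). Nlrc5, the transcriptional activator of that gene family, rose from 2, 4 and 0 UMIs to 65, 22 and 30 UMIs. The oncofetal RNA-binding gene Lin28b rose from 2, 4 and 4 UMIs to 18, 21 and 14 UMIs, and Igf2bp3 from 2.41 to 5.45 CPM, a call lost without control mouse 1 or 3 or stress mouse 1 or 2 (edgeR adjusted p = 0.0573 to 0.0897). Malat1 (4401 to 7552 CPM) and Kcnq1ot1 (139.6 to 212 CPM) rose among 8 nuclear-retained RNAs, and Snhg5, Snhg6 and Snhg15 among 15 snoRNA host genes, but all 5 lost their call without control mouse 1 or 3. Malat1, Snhg5 and Snhg6 also lost it without stress mouse 1 or 3, Kcnq1ot1 without stress mouse 2 and Snhg15 without any single stress mouse (edgeR adjusted p = 0.0673 to 0.216 over the 5 genes). Krt8 (6.26 to 2.85 CPM) and Ndrg1 fell among 9 H22 tumor and epithelial genes and Cdkn2d, a cyclin-dependent kinase inhibitor, from 37.0 to 20.3 CPM among 23 FOXO, growth arrest and p53 genes. Cdkn2d, Malat1, Kcnq1ot1, Snhg6, B2m and Uqcr10 were not called with thinned cells (edgeR adjusted p = 0.0502 to 0.384). With 306 cells per mouse Krt8, Igf2bp3, Snhg6, Snhg15, B2m and Uqcr10 were not called (edgeR adjusted p = 0.0537 to 0.217). Snhg15 was also not called with RLE scaling or totals without mitochondrial genes, B2m without the filter on low counts and Uqcr10 without called doublets (edgeR adjusted p = 0.0512 to 0.0601). Krt8 lost its call without any single mouse but control mouse 2 (edgeR adjusted p = 0.0697 to 0.125). Of 87 nuclear respiratory chain genes, Atp5me rose and Uqcr10 fell, but Atp5me lost its call without control mouse 1 or 3 or stress mouse 2 or 3, and Uqcr10 without any single mouse but control mouse 2 (edgeR adjusted p = 0.0771 to 0.161). No gene was called among 30 splicing regulators, 31 chromatin regulators, 15 integrated stress response genes or 13 interferon-stimulated genes. Their median log2 fold changes were -0.04, -0.07, 0.24 and 0.48. The integrated stress response gene Slc7a5 was called without stress mouse 3 (edgeR adjusted p = 0.0458). Bst2, an interferon-stimulated gene, was called without control mouse 2 (edgeR adjusted p = 0.0342).

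Finally, the stress difference in cluster 9 was tested against that in other tumor cells of the same mice, in 1 model with a term for each mouse. Of 18056 genes, 400 (2.22%) had an adjusted p under 0.05, with a difference that was larger in cluster 9 for 196 (1.09%) and lower for 204 (1.13%). The count fell to between 119 and 230 when control mouse 1, control mouse 3, stress mouse 1 or stress mouse 2 was dropped, and reached 606 when stress mouse 3 and 890 when control mouse 2 was dropped. For Pecam1 the log2 difference of the differences was 1.94 ± 0.28 (SE; edgeR adjusted p = 0.000798), since other tumor cells went only from 2.81, 3.35 and 2.34 CPM to 5.70, 6.08 and 8.67 CPM. For Pde4c it was 0.55 (edgeR adjusted p = 0.39), as other tumor cells also rose, by 2.28 on the log2 scale from a lower level. For the gene a it was 2.0 ± 0.18 (edgeR adjusted p = 7.59e-06).

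Lsmem1, a gene for a small membrane protein, rose from 7.98, 14.9 and 8.69 CPM to 44.4, 43.8 and 53.5 CPM in cluster 9, against 8.68, 12.9 and 6.90 CPM to 17.0, 19.4 and 17.7 CPM in other tumor cells. Ankrd42 rose from 8.98 ± 1.84 to 27.3 ± 1.97 CPM in cluster 9 while other tumor cells lay between 5.61 and 7.97 CPM in all mice. Sox2, a transcription factor of stem and progenitor cells, went the other way. It fell from 28.1, 30.9 and 27.1 CPM in control to 14, 18.6 and 18.5 CPM in stress mice in cluster 9 (edgeR adjusted p = 0.0085, or 0.0786 with cells thinned to 5000 UMIs), and other tumor cells held 30.1, 44.9 and 27.2 CPM in control and 34.0, 37.9 and 43.9 CPM in stress. The annotated span of Sox2 overlaps that of Sox2ot on the same strand, so reads of Sox2ot could have been counted for Sox2. For Crybg3 and Rapgef3, an exchange factor activated by cAMP, the contrast arose in other tumor cells, with log2 fold changes there of 0.85 and 0.72 and in cluster 9 of 0.04 and 0.02.

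Among the gene lists, counts of interaction terms are read against 1.09% of all tested genes with a positive and 1.13% with a negative term. Positive terms were found for 3 of 16 immediate-early genes, Atf3, Jun and Ier2, at 0.98, 0.68 and 0.61, and none was negative. Ier2 had a log2 fold change of -0.28 in cluster 9 and -1.01 in other tumor cells, so its positive term was a smaller difference in cluster 9 and not a rise. Of 12 heat shock genes, Hspb1 had a negative term of -0.70, with log2 fold changes of 0.07 in cluster 9 and 0.66 in other tumor cells. Of 15 glucocorticoid receptor and response genes, 3 had negative terms, the metallothioneins Mt1 and Mt2 at -0.46 and -0.43 and Errfi1, an inhibitor of the EGF receptor, at -0.54. Of 15 snoRNA host genes, 5 had positive terms, which were 0.76 for Snhg5, 0.54 for Snhg12, 0.52 for Zfas1, 0.39 for Snhg6 and 0.35 for Gas5, and Snhg20 had a negative one of -0.32. Of 60 replication-dependent histones, 4 had negative terms and none a positive one, with H4c18 at -0.91, H2ac24 at -0.64, H1f5 at -0.62 and H2ac8 at -0.51. The marker Mir100hg had a term of -0.71. Every other list held at most 3 called terms. Of the 18 genes named here, Atf3, Hspb1, Mt1, Snhg5 and Mir100hg were called with any single mouse left out, whereas the others lost the call without at least 1 mouse. Errfi1 and Snhg12 lost it without stress mouse 1 alone (edgeR adjusted p = 0.0520 and 0.0725). Zfas1 and H2ac8 lost it without control mouse 3 or stress mouse 1, Mt2 without control mouse 1 or 3, Ier2 without control mouse 1 or 3 or stress mouse 2, and H1f5 and H2ac24 without control mouse 1 or 3 or stress mouse 1. Jun, Snhg6, Gas5 and H4c18 lost it without control mouse 1 or 3 or stress mouse 1 or 2, and Snhg20 without any mouse but control mouse 2 (edgeR adjusted p of at most 0.249 over all of these). With RLE scaling H4c18 and Snhg20 were also not called (edgeR adjusted p = 0.0509 and 0.0736).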

How the data were processed

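The authors deposited 1 matrix of UMI counts per mouse, made with Cell Ranger (9.0.0 for the control and 7.1.0 for the stress libraries) on mm10, and a cell table with clusters and cell types; per the study's methods, doublets had been removed with Scrublet before clustering in Seurat. UMI totals in the cell table equalled the matrix for 65.0% of cluster 9 cells, and the largest difference was 18 UMIs. Counts were summed over the cells of each mouse and class and divided by the class total for CPM. The 6 libraries held between 149558935 and 187728350 UMIs in annotated cells. The labels name the mice as separate animals. Groups and replicate numbers were taken from the labels, and no per-sample column was left unused.

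Stress was tested against control with edgeR 4.0.16 (R 4.3.3), using the quasi-likelihood test, TMM scaling, filterByExpr and Benjamini-Hochberg adjustment at 0.05 over all genes. The difference from other tumor cells was tested with a term for each mouse. Tests were tried on simulated counts first. For cluster 9, 8 of 98 genes changed by 0.5 on the log2 scale and 66 of 97 changed by 1.0 were recovered. Fewer genes were changed in the simulation than were called in the data. A gene that was not called is thus not shown to be unchanged. Single values per mouse were compared with exact permutation tests (scipy 1.17.1). Alternatives were RLE scaling, no filter on low counts, DESeq2 1.42.0, a replicate block, each mouse left out, 306 cells per mouse, no called doublets (Scrublet in scanpy 1.11.5), cells thinned to 5000 UMIs, a log2 bound of 0.15, and, chosen after seeing the data, totals without mitochondrial genes.

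Between cluster 9 and other tumor cells the text names the 5 markers and, among genes higher or lower in all 6 mice with at least 20 CPM, the 20 highest and 10 lowest by the median of log2(CPM + 1) differences. For stress it names the 10 largest rises and falls that were called, did not overlap and reached 20 CPM, the 5 largest interaction terms in each direction, and up to 4 called members per list. List members with at least 5 CPM in either class were counted between classes. Other list members are examples chosen after their values were seen. Members and lists were chosen with earlier results of these data known. Positions are from GENCODE M21 (GRCm38), which held 32061 of the 34099 gene identifiers, and promoters from RefSeq on GRCm38.p6. Strand use in counting is not given in the sources used here.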

Additional observations from a re-analysis of the deposited data

Results flagged for a closer look

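In 10 genes with at least 20 CPM the stress difference in cluster 9 differed from that in other tumor cells by the interaction test, chosen as the 5 largest terms in each direction among those with an edgeR adjusted p under 0.05. The positive terms, on the log2 scale, were 2.0 for a (edgeR adjusted p = 7.59e-06), 1.94 for Pecam1 (0.000798), 1.53 for Gm36037 (0.00014), 1.24 for Lsmem1 (4.45e-05) and 1.23 for Ankrd42 (0.000275). In these 5 genes cluster 9 rose by 1.60 or more. Other tumor cells had log2 fold changes of 0.08 for a, 1.13 for Pecam1, 1.27 for Gm36037, 0.80 for Lsmem1 and 0.25 for Ankrd42. The negative terms were -0.99 for Sox2 (edgeR adjusted p = 0.000518), -0.97 for Gm49890 (0.00366), -0.95 for Crybg3 (0.000165), -0.95 for Sema3c (0.0497) and -0.82 for Rapgef3 (0.00397).

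Of the negative terms, Sox2 was the 1 in which cluster 9 itself changed past the threshold. Sema3c, a secreted guidance cue, had a log2 fold change of -1.45 in cluster 9 (edgeR adjusted p = 0.132) and -0.51 in other tumor cells. In cluster 9 it was called in 3 of 14 alternatives, among them without control mouse 2 (edgeR adjusted p = 0.00116). Its interaction call was lost with RLE scaling, without called doublets and without control mouse 1 or 3 or stress mouse 2 or 3 (edgeR adjusted p = 0.0521 to 0.269). Its cluster 9 values were 77.2, 14.7 and 53.3 CPM in control and 25.1, 13.5 and 14.5 CPM in stress mice, so that control mouse 2 stood with the stress mice. Gm49890 had -0.16 in cluster 9 and 0.70 in other tumor cells. The span of Gm49890 holds the microRNA gene Mir31 on the same strand.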

How the results depend on the processing

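Calls in cluster 9 numbered 1214 of 13243 genes and 2695 without the filter on low counts, 1982 with the replicate block, 713 with 306 cells per mouse, 218 with cells thinned to 5000 UMIs, and 472 to 3164 with 1 mouse left out. RLE scaling, DESeq2, no called doublets, a log2 bound of 0.15 and totals without mitochondrial genes gave 1213, 1371, 1223, 1214 and 1229. Interaction calls numbered 400, and 784 without the filter, 1 when the replicate block replaced the term for each mouse, 119 to 890 with 1 mouse left out, 334 with RLE scaling and 392 without called doublets. The main tests did not treat same-numbered mice as pairs. The correlations of same-numbered deviations were 0.384, 0.369 and -0.0228, and those of unlike numbers ranged from -0.417 to 0.241. Whether same-numbered mice shared a batch was not tested. With the replicate block in place of the mouse terms, the gene a kept its interaction call and the 9 other named terms did not (edgeR adjusted p = 0.0530 to 0.468). In cluster 9 the adjusted p of Mir100hg from edgeR was 0.0223 with the block and 0.0605 without it.

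The stress minus control difference in the share of tumor cells was -0.39 percentage points, -1.01 to 0.25 with 1 mouse left out, with 0.25 without stress mouse 2, and -1.40 over all annotated cells. The mitochondrial difference of 2.39 points ranged from 1.81 to 2.78. Of 1140 log2 fold changes of named genes under alternatives, 969 kept their direction and side of the threshold, 131 lost and 18 gained the call, and 22 changed direction, all in genes that were not called. With 1 mouse left out, these spanned -0.254 to 0.00693 for Ogt, -0.115 to 0.0936 for Rbm39, -0.126 to 0.172 for Eif4ebp1, -0.0423 to 0.162 for Rheb, -0.00989 to 0.341 for Slbp, -0.00688 to 0.426 for Irf1, -0.0618 to 0.0977 for Crybg3 and -0.229 to 0.418 for Rapgef3. Thinning gave 0.0576 for Rbm39, and no filter gave -0.00293 for Eif4ebp1, -0.0173 for Rheb, -0.0406 for Crybg3 and -0.0518 for Rapgef3. The cause of these shifts was not tested.

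Thinning and 306 cells per mouse lower the counts behind each test. Sparse genes such as Nlrc5, Lin28b and Pde8a rest on few UMIs in control mice, so their fold is imprecise.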
